A study of Mus musculus with 9 samples.

Results

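Mitosis separates the copied chromosomes into 2 daughter cells, and the 36 genes described here encode much of the machinery that does so. They were taken by symbol from a list of cell division genes, and all 36 were found among the 53465 genes of the count table. The study concerned macrophages of the joint that renew locally, and the values below give how much transcript of the division machinery such cells held when freshly sorted and how much cultured macrophages held. RNA was sequenced in 9 mouse macrophage samples, 3 in each of 3 groups. Lining macrophages (libraries A, B and C) were CD45+CD11b+F4/80+GFP+ cells sorted from hind paw synovial tissue of healthy Cx3cr1-GFP mice, in which green fluorescent protein (GFP) reports the fractalkine receptor gene Cx3cr1. Interstitial macrophages (libraries D, E and F) were CD45+CD11b+F4/80+GFP- cells from the same tissue and strain. Bone marrow-derived macrophages (BMDM, libraries G, H and I) came from C57BL/6 mice and were differentiated for 5 days in MCSF-conditioned medium. MCSF, the macrophage colony-stimulating factor, is a growth factor for these cells. BMDM differed from both sorted groups in strain, tissue of origin, culture and the lack of a sort, and these cannot be told apart. The labels name no treatment in any group, the age of the mice is not given in the sources used here, and nothing says whether samples of a group came from separate animals, so p-values measure the spread between these samples, which may be technical.

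Library totals ran from 2194920 to 4693755 counts in lining A and C and interstitial D and F. They were 11137451 in lining B and 10807462 in interstitial E, and 19427273 to 22499823 in BMDM. Levels are given as CPM, the usual depth-scaled count, with library sizes adjusted by edgeR's TMM factors (trimmed mean of M values). A count of 3 corresponded to 1.45, 0.286 and 1.12 CPM in lining A, B and C, to 1.33, 0.273 and 0.636 CPM in interstitial D, E and F, and to 0.130 to 0.149 CPM in BMDM, and this floor covers counting error only. All 10 macrophage markers (among them Adgre1, Csf1r and C1qa) were present in every library. Their summed level was 16921 to 25057 CPM in lining, 11876 to 20721 in interstitial and 6608 to 6743 in BMDM. Csf1r and the C1q genes made up most of this sum, and the markers differed in direction. Mean Ptprc was nearly level, at 450, 459 and 448 CPM in lining, interstitial and BMDM. Cd68 (1514, 859 and 1034 CPM) and Fcgr1 (144, 70.3 and 112 CPM) had higher means in BMDM than in interstitial. Cx3cr1, the gene behind the sort, stood at 662 to 774 CPM in lining and 2.66 to 7.85 in interstitial, so the sort labels and this transcript were on the same side in all 6 libraries.

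As background, entry into mitosis depends on Cdk1 bound to cyclins A and B, together with the Polo and Aurora kinases. The spindle, built from microtubules and moved by kinesin motors, is attached to chromosomes at kinetochores. A checkpoint holds the anaphase-promoting complex inactive until every kinetochore is attached, after which that complex marks cyclin B and securin for destruction. Most of these genes are transcribed late in the cell cycle, in G2 and M phase, through promoter elements bound by the factor NF-Y (the CCAAT box) and by MuvB protein complexes, to which FOXM1 binds (the cell cycle genes homology region, TTTGAA or TTCGAA). Tissue macrophages can divide in place, and MCSF stimulates division of marrow progenitors as they become macrophages in culture.

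Promoter sequences were available from RefSeq (GRCm38.p6) for 31 of the 36 genes, as windows of 250 bases before and 50 bases after the transcript start. Aurkb, Ccna2, Foxm1, Kif20a and Tpx2 had no entry. The windows printed here are those of the 4 genes with an entry that had the highest level per kilobase of exon in BMDM (Mki67, Top2a, Ccnb2 and Plk1), and of Cenpa, the gene with the smallest difference between BMDM and lining. Capitals mark the CCAAT box with its reverse complement ATTGG, the element TTTGAA with its reverse complement TTCAAA, and the palindrome TTCGAA, so that their spacing can be read. Mki67 lies at chr7:135716330-135716629 and Top2a at chr11:99024140-99024439, both on the minus strand. Ccnb2 lies at chr9:70421505-70421804 on the minus strand, Plk1 at chr7:122159185-122159484 on the plus strand and Cenpa at chr5:30666636-30666935 on the plus strand. Each runs 5′ to 3′ along its gene's strand.
Mki67: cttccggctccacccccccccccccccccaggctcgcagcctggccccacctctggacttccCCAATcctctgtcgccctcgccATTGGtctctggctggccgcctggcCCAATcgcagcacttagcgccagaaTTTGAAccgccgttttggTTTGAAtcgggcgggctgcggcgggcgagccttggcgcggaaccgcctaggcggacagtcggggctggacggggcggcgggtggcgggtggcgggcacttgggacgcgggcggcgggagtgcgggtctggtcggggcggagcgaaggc
Top2a: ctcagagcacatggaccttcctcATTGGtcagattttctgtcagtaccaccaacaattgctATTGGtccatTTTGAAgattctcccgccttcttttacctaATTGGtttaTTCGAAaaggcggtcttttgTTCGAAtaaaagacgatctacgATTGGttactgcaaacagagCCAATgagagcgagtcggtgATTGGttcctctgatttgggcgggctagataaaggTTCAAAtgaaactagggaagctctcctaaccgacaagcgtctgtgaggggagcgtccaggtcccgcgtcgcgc
Ccnb2: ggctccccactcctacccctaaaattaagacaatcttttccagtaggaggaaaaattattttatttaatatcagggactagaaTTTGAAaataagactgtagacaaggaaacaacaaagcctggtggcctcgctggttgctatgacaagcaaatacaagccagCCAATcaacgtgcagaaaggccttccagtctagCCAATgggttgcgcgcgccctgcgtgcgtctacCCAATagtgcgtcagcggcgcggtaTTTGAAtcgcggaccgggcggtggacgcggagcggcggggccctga
Plk1: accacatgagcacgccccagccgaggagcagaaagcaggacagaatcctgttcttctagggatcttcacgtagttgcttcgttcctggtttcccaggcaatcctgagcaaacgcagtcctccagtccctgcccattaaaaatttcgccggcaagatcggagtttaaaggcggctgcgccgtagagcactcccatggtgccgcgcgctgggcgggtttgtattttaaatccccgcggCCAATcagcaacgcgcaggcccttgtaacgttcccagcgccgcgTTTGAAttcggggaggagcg
Cenpa: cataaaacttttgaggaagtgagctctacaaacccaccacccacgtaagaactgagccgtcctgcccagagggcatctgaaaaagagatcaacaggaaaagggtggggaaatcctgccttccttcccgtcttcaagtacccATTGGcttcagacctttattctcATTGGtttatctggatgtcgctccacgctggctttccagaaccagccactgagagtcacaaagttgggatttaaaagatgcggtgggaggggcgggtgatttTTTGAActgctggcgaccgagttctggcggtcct

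The Mki67 window held 3 CCAAT and 2 TTTGAA matches, and that of Ccnb2 the same numbers. Top2a had 6 CCAAT matches, 2 of TTTGAA and 2 of TTCGAA. Plk1 held 1 of each of CCAAT and TTTGAA, with the TTTGAA close to the 3′ end of its window, and Cenpa held 2 CCAAT and 1 TTTGAA. The 31 genes had 33 windows, and a gene was counted if any of its windows held the element. TTTGAA on either strand was found for 24 genes (77.4%), against 20.2% of the 27025 genes in the promoter table and 14.6% of the 9700 fitted genes with an entry. CCAAT was found for 23 genes (74.2%), against 41.1% of the table. A CCAAT together with TTTGAA or TTCGAA, with overlaps allowed, was held by 21 genes (67.7%), against 8.61% of the table. The same pair was found for 27 of 55 other mitosis genes with an entry (49.1%) and for 5 of 30 DNA replication genes (16.7%). TAAACA, a forkhead core element searched for because FOXM1 is a forkhead protein, was found for 5 genes (16.1%), against 15.1% of the table. TTCGAA occurred in 3 (9.68%), against 1.80%. Over all 33 windows, the 58 CCAAT matches had a median position 69.5 bases before the start and the 34 TTTGAA matches 16.5 bases before it. These are letter matches in a fixed window and show no binding.

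All 36 genes were read at several-fold higher levels in BMDM than in either sorted population. The libraries of lining and interstitial macrophages overlapped for 35 of the 36, as they did for most genes. Of all genes, 9.91% lay wholly higher in lining and 8.66% wholly lower. edgeR's quasi-likelihood test, fitted to 12610 genes and called at an adjusted p under 0.05, called 35 of the 36 higher in BMDM than in lining and 0 lower, where 20.5% of all genes were called higher and 23.1% lower. Against interstitial macrophages all 36 were called higher in BMDM and 0 lower, with 21.3% of all genes called higher and 23.4% lower. The median log2 fold change of the 36 genes was 3.63 against lining (12.4-fold) and 3.61 against interstitial (12.2-fold), where the medians over all genes were -0.00028 and 0.01. A fold change above the 36 genes' median was seen for 2.85% of all genes against lining and 2.58% against interstitial. The 2 comparisons share the BMDM libraries and are not independent. The 36 genes together took 6916, 6723 and 7011 CPM in BMDM G, H and I, against 316, 632 and 861 CPM in lining A, B and C and 317, 530 and 921 CPM in interstitial D, E and F. In bulk RNA, fewer cells in mitosis and less transcript per cell cannot be told apart. All 36 passed the filter on low counts, and each exceeded its level of 0.925 CPM in at least 3 of the 6 sorted libraries, so none was kept through BMDM alone. For every one of the 36, the lowest BMDM library lay above the highest library of each sorted group, where 33.9% and 33.8% of all genes did so against lining and interstitial. That gap ran from 2.31-fold to 19.0-fold against lining, with a median of 8.07-fold, and from 2.06-fold to 18.8-fold against interstitial, with a median of 7.29-fold.

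**Figure D1:**
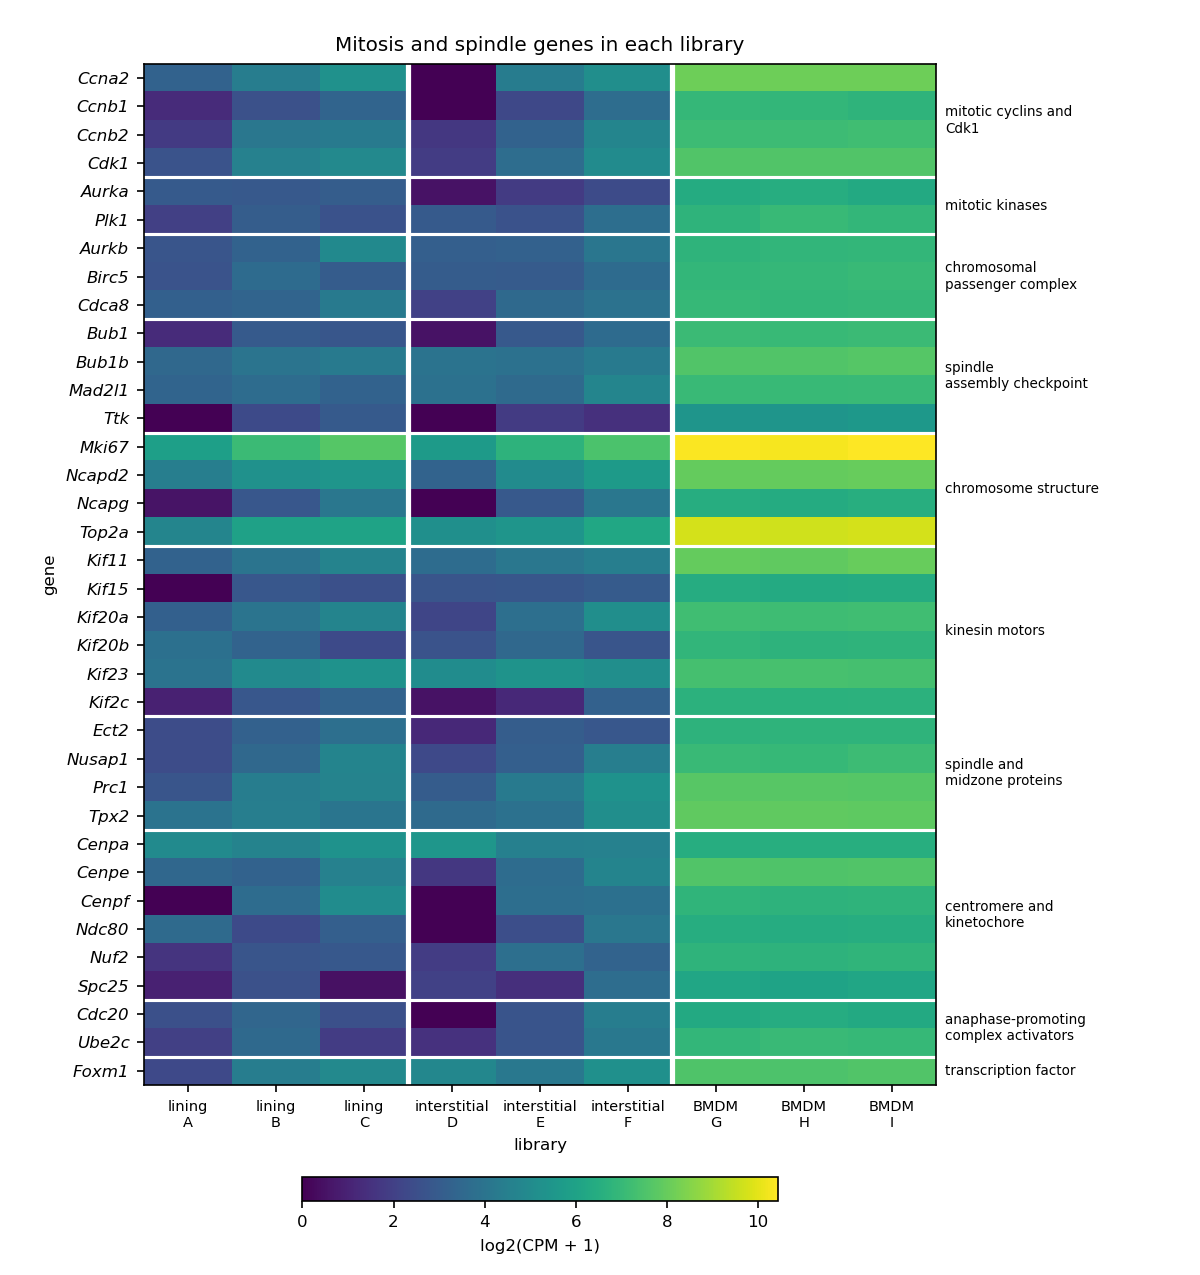
Level of each of the 36 genes (vertical axis, grouped by role) in each of the 9 libraries (horizontal axis), as colour on a scale of log2(CPM + 1). Every gene is brighter in BMDM G, H and I than in any sorted library, and within the sorted groups A and D are the darkest for most genes.

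The cyclins that drive mitosis and their kinase Cdk1 were 12.4-fold higher in BMDM than in lining and 14.2-fold higher than in interstitial by summed CPM. Ccna2, cyclin A2, which acts in S phase and early mitosis, measured 8.72, 20.3 and 37.5 CPM in lining A, B and C, 0, 19.5 and 34.8 CPM in interstitial D, E and F and 277, 275 and 278 CPM in BMDM. Interstitial D had no read of it, where the mean of E and F would have given 61.3 reads at its depth. The cause of such zeros was not tested. Both sorted groups spread widely and overlapped each other, and neither reached BMDM. The log2 fold change was 3.63 ± 0.87 (SE) against lining (adjusted p 0.0129) and 3.83 ± 0.86 against interstitial (adjusted p 0.0096). The call against lining was lost when any 1 BMDM library was left out, at adjusted p values of 0.0504 to 0.0537. Cdk1, the kinase of mitotic entry, measured 5.33, 23.3 and 29.2 CPM in lining, 2.66, 12.3 and 32.0 CPM in interstitial and 195, 195 and 193 CPM in BMDM. A and D were the lowest library of their groups, as for Ccna2. Cdk1 was 9.69-fold higher in BMDM than in lining (log2 3.28 ± 0.70, adjusted p 0.00664) and 11.8-fold higher than in interstitial (log2 3.57 ± 0.71, adjusted p 0.00429). Ccnb1, cyclin B1, the partner of Cdk1, measured 1.45, 4.96 and 9.37 CPM in lining, 0, 3.72 and 12.1 CPM in interstitial and 121, 119.7 and 109 CPM in BMDM. It was among the genes furthest from lining, with a log2 fold change of 4.44 ± 0.74 (adjusted p 0.00139), and was 20.5-fold higher in BMDM than in interstitial. Ccnb2, cyclin B2, lay between 2.42 and 18.4 CPM in lining, 2.21 and 25.9 in interstitial and 140 and 148 in BMDM, and was called higher in both comparisons.

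Plk1 and Aurka encode the Polo-like kinase 1 and Aurora A, which mature the centrosomes and activate Cdk1, and their summed level was 16.6-fold above lining and 19.2-fold above interstitial in BMDM. Plk1 measured 2.91, 7.53 and 5.25 CPM in lining, 6.64, 5.18 and 12.5 CPM in interstitial and 108, 128 and 119 CPM in BMDM. The sorted libraries were all low and the sorted groups overlapped. Plk1 was 20.4-fold higher in BMDM than in lining (log2 4.35 ± 0.35, adjusted p 1.39e-06) and 14.8-fold higher than in interstitial (log2 3.89 ± 0.34, adjusted p 2.39e-06). Aurka measured 6.78, 6.58 and 7.497 CPM in lining, 0.443, 2.54 and 4.24 CPM in interstitial and 83.5, 88.8 and 79.8 CPM in BMDM. Here the 3 lining libraries were nearly equal and all lay above the 3 interstitial ones, of which D was below its floor of 3 counts. Its difference between BMDM and interstitial was the largest of the 36, a log2 fold change of 4.97 ± 0.37 or 31.3-fold (adjusted p 6.93e-07), against 3.60 ± 0.34 over lining (adjusted p 5.19e-06).

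The chromosomal passenger complex, which corrects faulty attachments of chromosomes to the spindle, was represented by its kinase Aurkb (Aurora B), by Birc5 (survivin) and by Cdca8 (borealin). All 3 were called higher in BMDM in both comparisons, with a median log2 fold change of 3.37 against lining and 3.60 against interstitial. Birc5 measured 5.33, 11.6 and 7.12 CPM in lining, 7.08, 6.995 and 11.7 CPM in interstitial and 119, 121 and 128 CPM in BMDM. Its sorted libraries overlapped and stood at a small part of the BMDM level. The log2 fold change was 3.81 ± 0.28 against lining (adjusted p 6.59e-07) and 3.83 ± 0.28 against interstitial (adjusted p 6.14e-07). Cdca8 measured 8.23, 9.34 and 18.4 CPM in lining, 3.10, 10.8 and 14.2 CPM in interstitial and 124, 119.8 and 121 CPM in BMDM. Lining C and interstitial F were the highest of their groups, and the groups overlapped. Cdca8 was 10.3-fold above lining (adjusted p 2.73e-05) and 12.1-fold above interstitial (adjusted p 1.41e-05). Aurkb reached 29.6 CPM in lining C, against 5.81 and 8.58 in A and B, and 108 to 117 CPM in BMDM.

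Genes of the spindle assembly checkpoint, Bub1, Bub1b, Ttk and Mad2l1, were all called higher in BMDM in both comparisons. Bub1b encodes BUBR1, part of the complex that inhibits the anaphase-promoting complex, and measured 10.7, 15.3 and 18.7 CPM in lining, 14.6, 13.8 and 18.7 CPM in interstitial and 195, 193 and 203 CPM in BMDM. The sorted libraries lay close together for this gene, and none stood apart. It had the smallest adjusted p of the 36 in each comparison, 6.33e-08 against lining (log2 3.71 ± 0.21) and 6.39e-08 against interstitial (log2 3.65 ± 0.20). Mad2l1, which encodes the checkpoint protein MAD2, measured 9.20, 12.01 and 8.62 CPM in lining, 13.7, 11.1 and 25.9 CPM in interstitial and 132, 128 and 131 CPM in BMDM. Interstitial F was the highest sorted library, and D and F lay above all of lining. Mad2l1 was 12.7-fold above lining (log2 3.66 ± 0.30, adjusted p 1.37e-06) and 7.75-fold above interstitial (log2 2.95 ± 0.28, adjusted p 5.00e-06). Bub1, a checkpoint kinase at kinetochores, measured 1.45, 6.77 and 6.00 CPM in lining, 0.443, 6.45 and 11.7 CPM in interstitial and 137, 128 and 136 CPM in BMDM. Its log2 fold change of 4.65 ± 0.58 against lining was the largest of the 36 (adjusted p 0.000134). Ttk, the checkpoint kinase MPS1, measured 0, 4.002 and 6.75 CPM in lining, 0, 2.54 and 1.70 CPM in interstitial and 42.9, 42.3 and 46.8 CPM in BMDM, with no read in A or D. It was 24.8-fold higher in BMDM than in interstitial (log2 4.63 ± 0.70, adjusted p 0.000256).

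All 4 chromosome structure genes were called higher in BMDM in both comparisons. Mki67 encodes Ki-67, a coat protein of mitotic chromosomes and a standard stain for cycling cells. It measured 58.1, 137 and 207 CPM in lining, 50.02, 107 and 175 CPM in interstitial and 1333, 1229.8 and 1376 CPM in BMDM. Every sorted library held it well above its floor, with A and D lowest and C and F highest. Mki67 was 9.75-fold higher in BMDM than in lining (log2 3.29 ± 0.54, adjusted p 0.00148) and 11.7-fold higher than in interstitial (log2 3.55 ± 0.54, adjusted p 0.000973). Top2a encodes topoisomerase II alpha, which untangles sister DNA, and measured 26.2, 61.2 and 64.9 CPM in lining, 35.4, 42.5 and 73.4 CPM in interstitial and 854, 806 and 872 CPM in BMDM. The sorted groups overlapped. The log2 fold change was 4.03 ± 0.35 against lining (adjusted p 6.47e-06) and 4.05 ± 0.35 against interstitial (adjusted p 5.93e-06). Ncapg and Ncapd2 encode subunits of condensin I, which compacts chromosomes. Ncapd2 measured 21.3, 37.4 and 42.0 CPM in lining, 8.85, 31.8 and 50.05 CPM in interstitial and 252, 247 and 254 CPM in BMDM, a log2 fold change of 2.88 ± 0.46 against lining (adjusted p 0.001). Ncapg ranged from 0.484 to 16.5 CPM in lining, from 0 to 16.5 in interstitial and from 84.7 to 90.7 in BMDM. It was called higher in BMDM against both, and both calls were lost when any 1 BMDM library was left out (adjusted p 0.0621 to 0.0684).

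All 6 kinesins, motors that push spindle poles apart, move chromosomes or build the division site, were called higher in BMDM in both comparisons. Kif11, which slides antiparallel microtubules to separate the poles, measured 8.72, 15.2 and 24.0 CPM in lining, 11.95, 16.6 and 21.0 CPM in interstitial and 250.4, 237 and 253 CPM in BMDM. No sorted library came near BMDM. Kif11 was 15.3-fold above lining (log2 3.94 ± 0.29, adjusted p 5.49e-07) and 14.6-fold above interstitial (log2 3.87 ± 0.28, adjusted p 5.45e-07). Kif23, the motor of the central spindle needed for cytokinesis, measured 14.5, 30.8 and 39.4 CPM in lining, 32.8, 40.3 and 34.8 CPM in interstitial and 162, 165 and 162 CPM in BMDM. Lining A was the low library, and interstitial was even. Its differences were the next to smallest of the set, 5.68-fold against lining (log2 2.51 ± 0.26, adjusted p 1.16e-05) and 4.50-fold against interstitial (adjusted p 2.95e-05). Kif2c, a kinesin that depolymerises microtubules at centromeres, measured 0.969, 6.10 and 8.997 CPM in lining, 0.443, 1.27 and 8.48 CPM in interstitial and 103, 99.8 and 102 CPM in BMDM. A and D lay below the floor of 3 counts. It was 29.4-fold above interstitial (log2 4.88 ± 0.75, adjusted p 0.000747), the second largest difference there. Kif15, which backs up Kif11, had no read in lining A and 4.87 to 6.998 CPM in the other sorted libraries. Kif20a, a motor of the late spindle, ranged from 3.54 to 34.1 CPM and Kif20b, a kinesin of cytokinesis, from 4.12 to 13.6 CPM in sorted libraries. In BMDM these 3 stood at 82.3 to 86.9, 144 to 150 and 106 to 117 CPM.

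**Figure D2:**
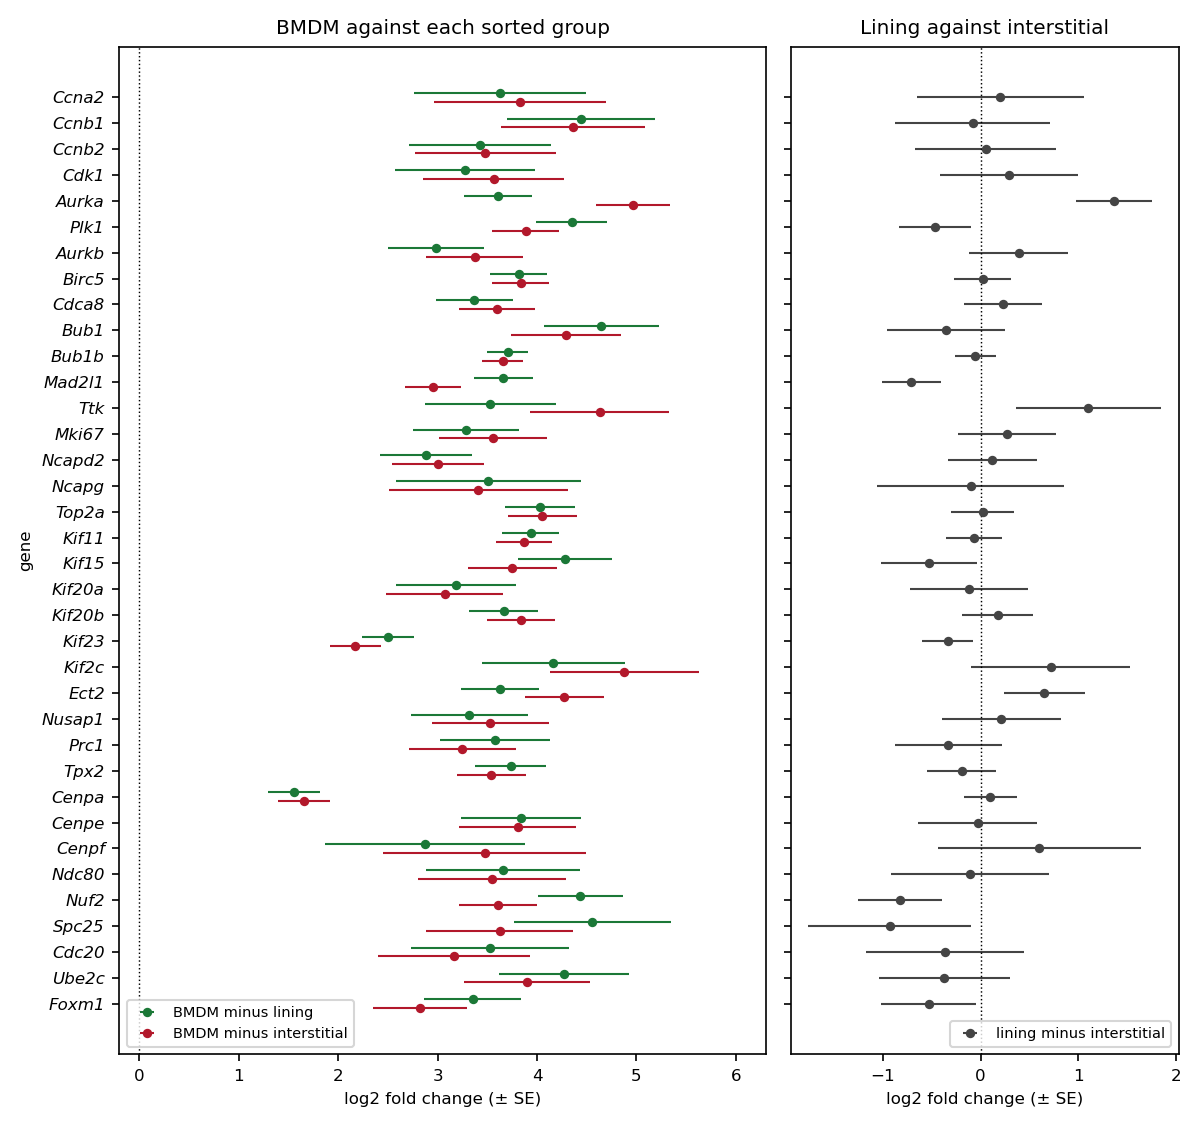
Log2 fold change with its SE for each of the 36 genes from edgeR's quasi-likelihood fit to all 9 libraries, BMDM against lining (green) and against interstitial (red) on the left, lining against interstitial on the right. Against the sorted groups all values lie between 1.55 and 4.97, with Cenpa and Kif23 lowest, and between lining and interstitial 34 of the 36 lie within 1 log2 unit of zero.

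Genes for spindle and midzone proteins were also higher in BMDM. Tpx2, which recruits and activates Aurora A on spindle microtubules, measured 14.5, 21.1 and 15.4 CPM in lining, 11.1, 13.6 and 34.6 CPM in interstitial and 236, 233 and 231 CPM in BMDM. Interstitial F stood above the other sorted libraries. Tpx2 was 13.3-fold above lining (adjusted p 8.09e-06) and 11.6-fold above interstitial (adjusted p 1.01e-05). Prc1, which bundles the midzone microtubules, measured 5.81, 20.3 and 24.0 CPM in lining, 7.08, 18.2 and 38.4 CPM in interstitial and 210.0, 209 and 206 CPM in BMDM. Again A and D were low and F was high, and the groups overlapped. The log2 fold change was 3.58 ± 0.56 against lining (adjusted p 0.000886) and 3.25 ± 0.54 against interstitial (adjusted p 0.00123). Nusap1, a microtubule-bundling protein, and Ect2, the activator of RhoA at the division furrow, were called higher in both comparisons too. Nusap1 ranged from 3.98 to 24.7 CPM in sorted libraries and from 124 to 139 CPM in BMDM. Ect2 ranged from 1.33 to 13.1 CPM and from 107 to 109 CPM.

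Centromere and kinetochore genes included the smallest difference of the set and, against lining, some of the largest. Cenpa, the histone H3 variant that marks centromeres, measured 31.0, 24.2 and 38.99 CPM in lining, 43.8, 22.3 and 23.1 CPM in interstitial and 90.1, 91.1 and 91.6 CPM in BMDM. Unlike most of the set, its level in D was the highest of the sorted libraries. Cenpa was 2.93-fold higher in BMDM than in lining (log2 1.55 ± 0.26, adjusted p 0.00053) and 3.14-fold higher than in interstitial (log2 1.65 ± 0.26, adjusted p 0.000314), the smallest difference of the 36 in each comparison. Its mean in lining was 34.5% of that in BMDM, where the median of the 36 was 8.02%. Cenpe, a kinetochore motor that carries chromosomes to the spindle equator, measured 10.2, 8.58 and 23.2 CPM in lining, 2.21, 11.7 and 24.8 CPM in interstitial and 193, 188 and 194 CPM in BMDM. D was the low library. The log2 fold change was 3.84 ± 0.61 against lining (adjusted p 0.001) and 3.81 ± 0.59 against interstitial (adjusted p 0.00086). Cenpf, a large kinetochore protein of G2 and mitosis, measured 0, 11.8 and 32.6 CPM in lining, 0, 12.8 and 13.6 CPM in interstitial and 112, 107 and 109.9 CPM in BMDM. A and D had no read of it, where their groups' other libraries would have given 45.9 and 29.8 reads. It was the only one of the 36 not called against lining (log2 2.88 ± 1.01, adjusted p 0.0524), and it passed when A was left out (adjusted p 0.0337). Against interstitial it was called (log2 3.48 ± 1.02, adjusted p 0.0272), a call lost in 6 of 19 alternatives, at adjusted p values up to 0.0980.

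Spc25, Ndc80 and Nuf2 are subunits of the NDC80 complex, the kinetochore's grip on microtubules, and were called higher in BMDM in both comparisons. Spc25 measured 0.969, 5.05 and 0.375 CPM in lining, 3.10, 1.64 and 12.3 CPM in interstitial and 70.03, 65.4 and 71.3 CPM in BMDM. Lining A and C held it below the floor of 3 counts. Spc25 was 23.6-fold above lining (log2 4.56 ± 0.79, adjusted p 0.00138). Nuf2 measured 1.94, 5.81 and 6.37 CPM in lining, 2.66, 12.9 and 8.91 CPM in interstitial and 110.5, 107 and 113 CPM in BMDM, and was 21.7-fold above lining (log2 4.44 ± 0.42, adjusted p 5.53e-06). Ndc80 ranged from 4.10 to 11.1 CPM in lining, from 0 to 16.5 in interstitial and from 86.3 to 89.5 in BMDM.

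The 2 genes that set the anaphase-promoting complex to work in mitosis, the activator Cdc20 and the ubiquitin-conjugating enzyme Ube2c, were called higher in BMDM in both comparisons. Ube2c measured 2.91, 10.7 and 2.62 CPM in lining, 1.77, 5.54 and 16.97 CPM in interstitial and 119, 135 and 126 CPM in BMDM. B and F were the high sorted libraries. It was 19.3-fold above lining (log2 4.27 ± 0.65, adjusted p 0.000749) and 14.9-fold above interstitial (log2 3.90 ± 0.63, adjusted p 0.000998). Cdc20 measured 4.84, 9.91 and 4.87 CPM in lining, 0, 5.54 and 20.6 CPM in interstitial and 80.0, 87.5 and 80.3 CPM in BMDM. D had no read, against 29.5 reads at the level of E and F. The log2 fold change was 3.53 ± 0.79 against lining (adjusted p 0.00683) and 3.17 ± 0.77 against interstitial (adjusted p 0.00915).

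Foxm1, the forkhead factor that activates many of these genes in G2, measured 3.87, 20.4 and 28.9 CPM in lining, 27.4, 16.99 and 36.5 CPM in interstitial and 189.6, 184 and 190.0 CPM in BMDM. In lining A it was low, but in interstitial D, where most of the set was low, it was not. Foxm1 was 10.2-fold higher in BMDM than in lining (log2 3.35 ± 0.49, adjusted p 0.000488) and 7.07-fold higher than in interstitial (log2 2.82 ± 0.47, adjusted p 0.00106), the third smallest difference there.

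Between lining and interstitial macrophages these genes overlapped in nearly every case. edgeR called 0 of the 36 in either direction, where 3.75% of all genes were called higher in lining and 2.05% lower. By unadjusted p, 1 gene (Aurka, higher in lining) and 1 other (Mad2l1, lower) were under 0.05, limma-voom called 0, and DESeq2 called 1. The median log2 fold change was -0.04, with -0.01 over all genes, and 34 of 36 genes lay within 1 log2 unit of zero. Standard errors of these differences ran from 0.21 to 1.04, so for many of the genes a difference of that size was not detectable. Aurka had the largest, 1.36 ± 0.39 (adjusted p 0.0666), followed by Ttk at 1.10 ± 0.74 (adjusted p 0.461) and Kif2c at 0.72 ± 0.81 (adjusted p 0.698). It was also the only one of the 36 whose lining libraries all lay above interstitial, where 9.91% of all genes did, and 0 of the 36 lay wholly the other way, where 8.66% did. The most negative were Spc25 at -0.93 ± 0.83 (adjusted p 0.602), Nuf2 at -0.83 ± 0.43 (adjusted p 0.328) and Mad2l1 at -0.71 ± 0.30 (adjusted p 0.218). Aurka passed with DESeq2 (adjusted p 0.00499), without a filter (0.0326), without interstitial D (0.0450) and without interstitial F (0.0231), and its adjusted p ranged from 0.00499 to 0.543 over all alternatives. Leaving out interstitial F also moved the median of the 36 to 0.56 and brought Kif2c past the threshold (log2 2.34, adjusted p 0.0450).

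Within each sorted group the spread in summed level was larger than the difference between the group means. Summed over the 36 genes, mean levels were 603 ± 274 CPM (SD, n = 3) in lining, 589 ± 306 in interstitial and 6883 ± 147 in BMDM. The highest library held 2.72 times the lowest in lining, 2.90 times in interstitial and 1.04 times in BMDM. The median coefficient of variation over the 36 genes was 54.4% in lining, 71.6% in interstitial and 2.76% in BMDM. Most genes followed the same order of libraries. Lining A was the lowest of its group for 28 of the 36 genes (40.7% of all genes had their lowest level there) and interstitial D for 29 (43.9%). Lining C was the highest for 25 (33.4%) and interstitial F for 30 (34.8%). As a share of the BMDM mean, the median gene stood at 3.42%, 7.93% and 10.6% in A, B and C and at 2.79%, 6.76% and 13.1% in D, E and F. Summed cyclins and Cdk1 varied 5.27-fold from A to C and 21.5-fold from D to F, the widest range of the 10 roles from D to F and second to Foxm1 (7.45-fold) from A to C, whereas kinesins varied 2.31-fold and 1.86-fold. Cdc20 and Ube2c together varied 21.2-fold from D to F but not from A to C (0.967-fold). The widest of these ranges rest on few reads. Interstitial D had 0, 0, 5 and 6 reads of Ccna2, Ccnb1, Ccnb2 and Cdk1 and 0 and 4 of Cdc20 and Ube2c. Lining A had 8 reads of Foxm1. The order of the roles by range is therefore uncertain.

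**Figure D3:**
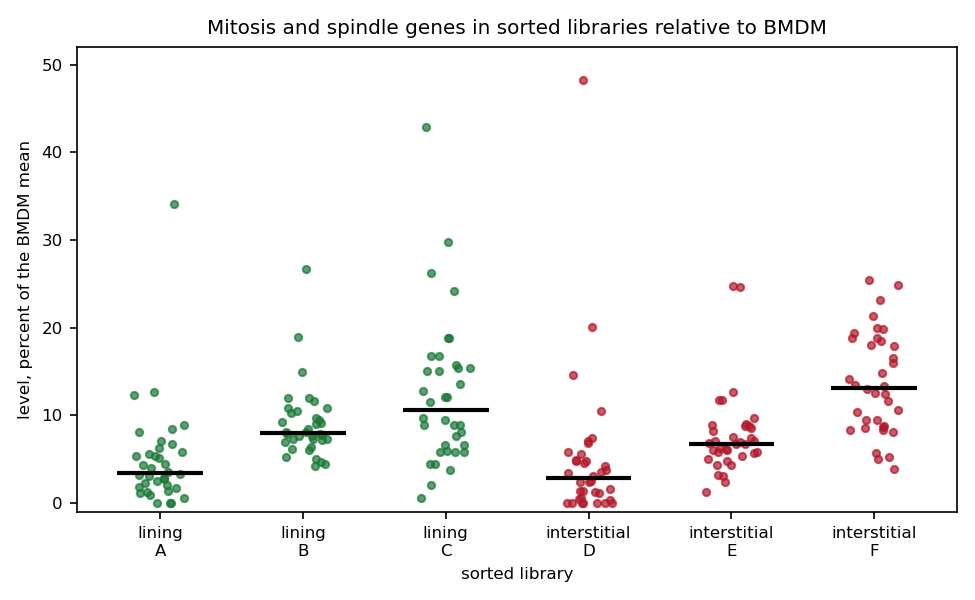
Level of each of the 36 genes in each sorted library as a percentage of its mean in BMDM, with 1 point per gene and a bar at the median. Medians run from 2.79% in interstitial D to 13.1% in interstitial F, and the lining libraries run from 3.42% to 10.6%.

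A and D were the shallowest libraries, and lining A had no read of 3 of the genes (Ttk, Kif15 and Cenpf) and interstitial D none of 7 (Ccna2, Ccnb1, Ttk, Cenpf, Ncapg, Cdc20 and Ndc80). Every library was thinned to 2194920 counts, the total of A, which left A unchanged at 33 genes with reads. Thinning took few reads from D, at 2238261 counts, which had reads of 29 genes. The other 7 libraries still had reads of all 36. At that depth the 36 genes had 653, 1310 and 1877 reads in A, B and C and 706, 1229 and 2015 in D, E and F. Lining C, at 2700843 counts, was nearly as shallow as A and held the highest summed level of lining. The part of depth in the spread was not tested. Other marker lists moved with the same libraries. Summed macrophage markers were highest where the division genes were lowest, at 25057, 21706 and 16921 CPM in A, B and C and 20721, 14182 and 11876 in D, E and F. Csf1r and the C1q genes made up most of that sum, and not every marker followed it. Ptprc was lowest in A and D, at 374, 450 and 526 CPM in lining and 375, 536 and 467 in interstitial. Csf1r was highest in B within lining, at 6207, 6337 and 5199 CPM. Monocyte markers (4 genes, nearly all Ccr2) were lowest in A and D, at 48.4, 146 and 165 CPM in lining and 53.1, 172 and 112 CPM in interstitial. Red blood cell markers (4 genes, led by Hba-a1 in 5 of the 6 sorted libraries) were highest in A and D, at 151, 16.3 and 45.0 CPM and 421, 12.1 and 28.4 CPM. Their part in the spread was not tested. Without A and D, an alternative chosen after seeing the data, all 36 genes were called higher in BMDM in both comparisons, with medians of 3.52 and 3.34, and 0 were called between lining and interstitial.

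The summed level of DNA replication genes, which act in S phase, did not share this spread. Summed over 39 of them, the level was 844, 865 and 880 CPM in lining A, B and C, 894, 791 and 928 CPM in interstitial D, E and F and 5065, 5107 and 4916 CPM in BMDM. The summed level of the 36 mitosis genes was thus 0.375, 0.731 and 0.979 times that of the replication genes in A, B and C, 0.355, 0.669 and 0.992 times in D, E and F, and 1.37, 1.32 and 1.43 times in BMDM. All 6 sorted libraries lay below all 3 BMDM libraries in this ratio. Both sums come from the same libraries, so the scaling of a library cancels in it. A level sum does not show that each gene in it was level. Summed over 63 further mitosis genes, described below, the level was 775, 1031 and 1158 CPM in lining A, B and C. In interstitial D, E and F it was 839, 1016 and 1307 CPM. In both groups that spread was narrower than that of the 36 genes.

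**Figure D4:**
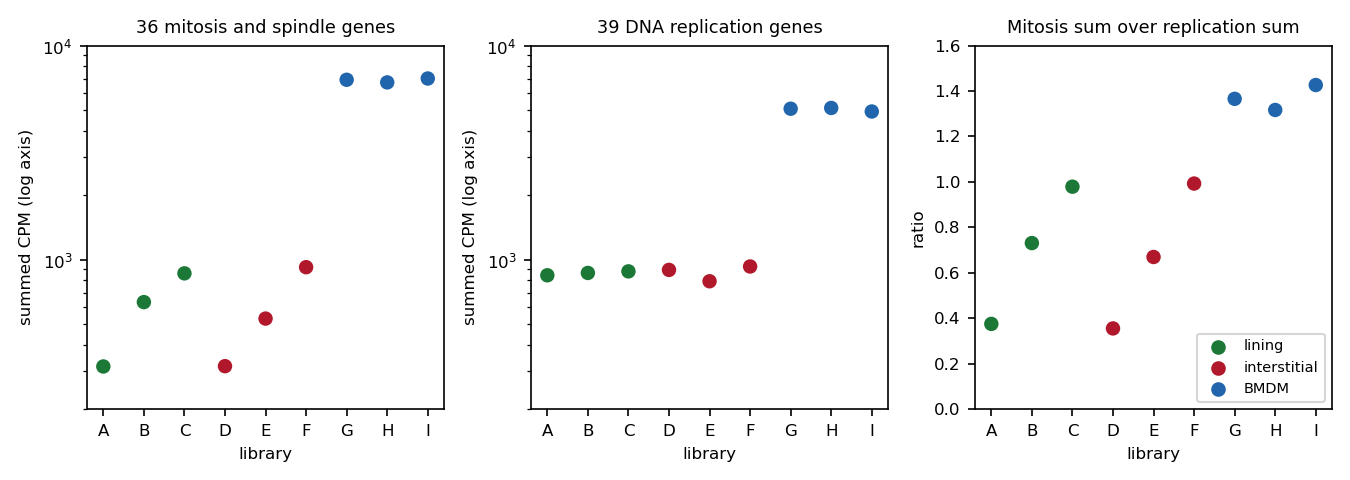
Summed CPM of the 36 mitosis and spindle genes (left, log axis), of 39 DNA replication genes (middle, log axis) and the ratio of the 2 sums (right) in each library, with 1 point per library coloured by group. The replication sum is nearly level across the 6 sorted libraries, from 791 to 928 CPM, while the mitosis sum runs from 316 to 921 CPM.

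Level per kilobase of exon allows a rough comparison of genes with each other. The length used counts every annotated exon base of a gene, and the transcript that was read can be shorter. By this measure Mki67 led in every group, at 13.3 CPM per kb in lining, 11.0 in interstitial and 130 in BMDM. Ccnb2 followed in the sorted groups, at 8.14 and 8.01 CPM per kb, and stood beside Top2a in BMDM, at 93.6 for each. Ccna2 was next in BMDM at 67.7 and Plk1 at 53.8 CPM per kb. The lowest levels in BMDM were those of Cenpf at 7.10, Kif15 at 7.68 and Ttk at 8.95 CPM per kb. Kif15 and Ttk were also among the lowest 3 in each sorted group, at 0.332 and 0.728 CPM per kb in lining and 0.567 and 0.287 in interstitial. As a description over the 36 genes, Spearman's rho between the orders of level per kilobase was 0.883 for lining and interstitial, 0.748 for lining and BMDM and 0.715 for interstitial and BMDM.

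Other genes of the division machinery moved the same way. Of 63 further mitosis genes tested, 60 were called higher in BMDM than in lining and 60 higher than in interstitial, with 0 lower in either and medians of 3.08 and 3.07. The shares of all genes called higher were 20.5% and 21.3%. Between lining and interstitial edgeR called 0, and 6 had an unadjusted p under 0.05. Largest were Spdl1, which recruits dynein to kinetochores, at log2 5.54 ± 0.38 against lining (adjusted p 3.57e-07) and 4.72 ± 0.35 against interstitial (adjusted p 6.67e-07), Hmmr, a spindle protein, at 4.94 ± 0.66 against lining (adjusted p 0.000277), and Sgo1, the protector of centromere cohesion, at 4.56 ± 0.70 against interstitial (adjusted p 0.000252). Spdl1 measured 2.91, 2.57 and 1.499 CPM in lining, 3.54, 2.36 and 7.21 CPM in interstitial and 105, 117 and 113 CPM in BMDM, low in every sorted library. Cenpw and Depdc1a against lining, and Cenpu and Depdc1a against interstitial, were not called, and neither was Pttg1, which encodes securin, in either comparison. These 4 genes are named because their values were seen. Pttg1 measured 27.1, 24.4 and 43.5 CPM in lining, 31.4, 24.5 and 21.0 CPM in interstitial and 20.2, 21.4 and 20.9 CPM in BMDM. Its log2 fold changes were -0.59 ± 0.26 against lining (adjusted p 0.0883) and -0.29 ± 0.26 against interstitial (adjusted p 0.402).

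The anaphase-promoting complex itself, with its interphase activator Fzr1 and other partners, differed far less than its mitotic activators. Of 17 genes, 8 were called higher in BMDM than in lining and 10 higher than in interstitial, where 20.5% and 21.3% of all genes were, with 0 lower and medians of 0.51 and 0.62. The largest differences were those of Fbxo5, the inhibitor EMI1, at log2 2.43 ± 0.44 against lining (adjusted p 0.000834) and 2.43 ± 0.43 against interstitial (adjusted p 0.000686), and of Ube2s, the ubiquitin chain elongating enzyme, at 1.99 ± 0.21 (adjusted p 1.02e-05) and 1.62 ± 0.20 (adjusted p 4.31e-05). Anapc15, a small subunit, was the only one called between lining and interstitial, at 53.8, 49.7 and 37.5 CPM in lining and 10.2, 25.1 and 25.0 CPM in interstitial (log2 1.18 ± 0.29, adjusted p 0.0329). All of its lining libraries lay above all of interstitial. This 1 call is 5.88% of the list, where 3.75% of all genes were called higher in lining.

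Of 39 DNA replication genes, 38 were called higher in BMDM in each comparison and 0 lower, with medians of 2.71 and 2.59. Of all genes, 20.5% were called higher against lining and 21.3% against interstitial. Not called were Rfc4 against lining (adjusted p 0.0755) and Orc1 against interstitial (adjusted p 0.0573). The largest were Mcm10, a replication initiation factor, at log2 4.57 ± 0.40 against lining (adjusted p 2.62e-06) and 5.04 ± 0.41 against interstitial (adjusted p 1.31e-06), Orc1, of the origin recognition complex, at 4.31 ± 1.27 against lining (adjusted p 0.0178), and Rrm2, which makes deoxynucleotides, at 4.37 ± 0.30 against interstitial (adjusted p 3.38e-07). Gins2, part of the replicative helicase, was the only one called between the sorted groups, lower in lining at 6.297, 6.38 and 4.87 CPM than in interstitial at 15.1, 12.7 and 15.3 CPM (log2 -1.27 ± 0.26, adjusted p 0.0139). That is 2.56% of the list, near the 2.05% of all genes called lower in lining.

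**Figure D5:**
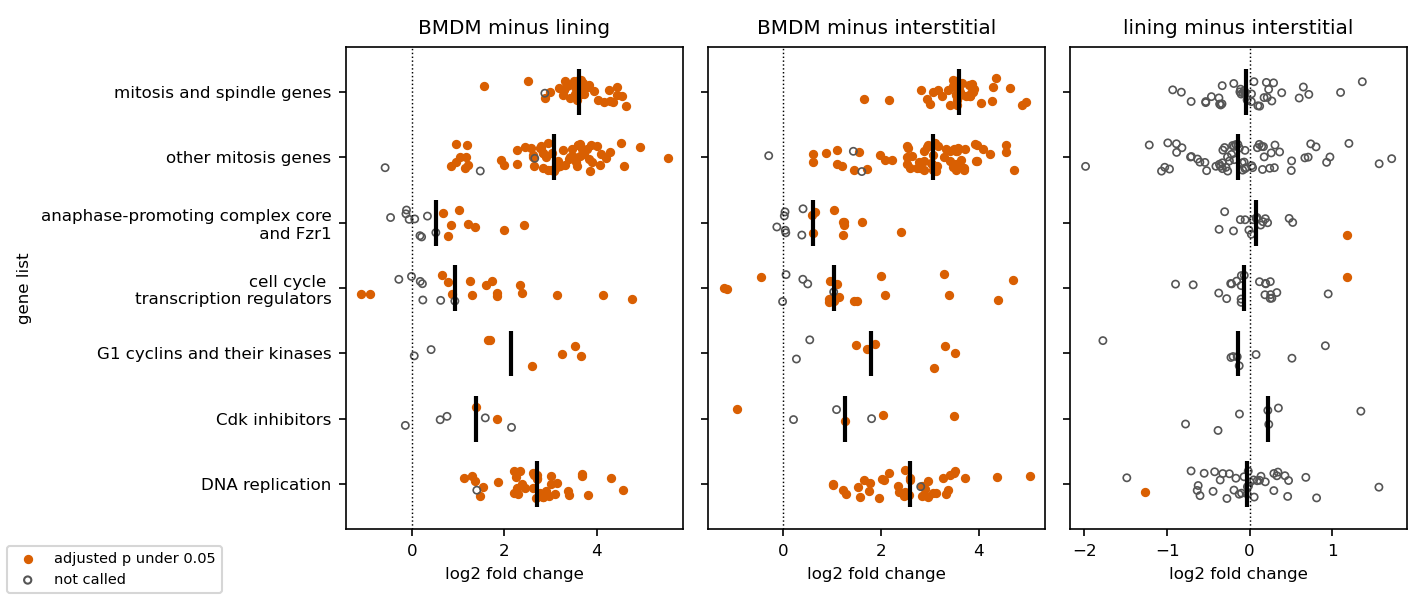
Log2 fold changes of the 36 genes and of 6 related gene lists (vertical axis) in the 3 comparisons, with 1 point per gene, filled where the adjusted p was under 0.05, and a bar at the list's median. The mitosis and replication lists lie far to the right in both BMDM comparisons, the anaphase-promoting complex core has lower medians of 0.51 and 0.62 there, and almost no gene is filled in the comparison of lining with interstitial.

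The called transcription regulators of the cell cycle were mostly higher in BMDM. Of 23 tested, 14 were called higher (60.9%) and 2 lower (8.70%) in BMDM than in lining, where 20.5% and 23.1% of all genes were. Against interstitial, 15 were called higher (65.2%) and 3 lower (13.0%), where 21.3% and 23.4% of all genes were. The medians were 0.92 and 1.04. E2f7 and E2f8, repressors that act late in the cycle, were the furthest up. E2f8 measured 3.39, 9.15 and 10.9 CPM in lining, 2.66, 6.63 and 10.2 CPM in interstitial and 140.0, 149 and 146 CPM in BMDM, log2 4.14 ± 0.36 against lining (adjusted p 2.64e-06) and 4.39 ± 0.36 against interstitial (adjusted p 1.60e-06). For E2f7 the log2 fold changes were 4.77 ± 0.68 (adjusted p 0.00014) and 4.71 ± 0.67 (adjusted p 0.000128). Chosen after their values were seen, the genes called lower were Rb1, the retinoblastoma restrainer of E2F factors (log2 -1.11 ± 0.20, adjusted p 0.000872, and -1.21 ± 0.20, adjusted p 0.000423), E2f5, a repressive E2F (log2 -0.92 ± 0.30, adjusted p 0.0249, and -1.14 ± 0.29, adjusted p 0.00755), and, against interstitial, Rbl2, a relative of Rb1 (log2 -0.45 ± 0.14, adjusted p 0.0221). Rb1 measured 76.5, 66.8 and 85.5 CPM in lining, 65.5, 107 and 69.98 CPM in interstitial and 36.6, 33.9 and 35.4 CPM in BMDM, with every sorted library above every BMDM library. E2f3, an activating E2F, was the only one called between the sorted groups, at 59.1, 37.3 and 34.1 CPM in lining and 24.3, 20.2 and 13.4 CPM in interstitial (log2 1.18 ± 0.27, adjusted p 0.0255). That is 4.35% of the list, near the 3.75% of all genes called higher in lining.

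Cyclins and kinases of G1, which pass growth factor signals to the cycle, were called higher in BMDM for 6 of 8 genes in each comparison. Over all genes the shares called higher were 20.5% against lining and 21.3% against interstitial. Ccnd1, cyclin D1, measured 79.9, 106 and 78.3 CPM in lining, 134, 84.9 and 78.7 CPM in interstitial and 820.4, 907 and 787 CPM in BMDM. Its log2 fold changes were 3.24 ± 0.21 (adjusted p 2.49e-07) and 3.09 ± 0.21 (adjusted p 3.50e-07). Ccnd2, cyclin D2, was uneven among sorted libraries, at 3.39, 4.86 and 2.25 CPM in lining and 1.77, 8.90 and 26.9 CPM in interstitial, against 53.6, 46.7 and 43.9 CPM in BMDM. It was called higher against both (log2 3.66 ± 0.67, adjusted p 0.00133, and 1.89 ± 0.59, adjusted p 0.0231). Ccne1 and Ccne2, the E cyclins of S phase entry, had log2 fold changes of 3.54 ± 0.61 and 2.60 ± 0.72 against lining and 3.31 ± 0.60 and 3.52 ± 0.74 against interstitial, all called. The kinases Cdk4, partner of the D cyclins, and Cdk2, partner of the E cyclins, were called at log2 1.65 ± 0.14 and 1.69 ± 0.36 against lining and 1.73 ± 0.14 and 1.49 ± 0.35 against interstitial. Ccnd3 and Cdk6 were not called, with Ccnd3 at 113, 93.8 and 72.7 CPM in lining, 131, 76.1 and 99.9 in interstitial and 121, 123 and 126 in BMDM. Cdk6 measured 110.0, 123 and 121 CPM in lining, 30.5, 105 and 109 in interstitial and 126, 126 and 113 in BMDM, with interstitial D the low library. None of the 8 was called between lining and interstitial by edgeR, with 1 at an unadjusted p under 0.05.

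Of 7 inhibitors of cyclin-dependent kinases, 2 were called higher (28.6%) and 0 lower in BMDM than in lining, where 20.5% and 23.1% of all genes were. Against interstitial, 3 were called higher (42.9%) and 1 lower (14.3%), where 21.3% and 23.4% of all genes were. In a list this small these shares rest on few calls. The median log2 fold changes were 1.39 and 1.26. The log2 fold change was above zero for 6 of the 7 in each comparison, all but Cdkn1b. Cdkn2c and Cdkn2d, the INK4 proteins p18 and p19, were called higher in BMDM than in lining (log2 1.39 ± 0.29, adjusted p 0.0022, and 1.83 ± 0.27, adjusted p 0.000176) and than in interstitial (log2 1.26 ± 0.29, adjusted p 0.00364, and 2.05 ± 0.27, adjusted p 7.20e-05). Cdkn1b, p27, measured 31.0, 40.1 and 29.6 CPM in lining, 67.7, 70.6 and 36.3 CPM in interstitial and 30.8, 28.3 and 32.4 CPM in BMDM. It was called lower in BMDM than in interstitial (log2 -0.93 ± 0.25, adjusted p 0.00926) and not called against lining (log2 -0.15 ± 0.25, adjusted p 0.654). D and E were its high libraries. Cdkn1a, p21, measured 99.8, 159.8 and 169.8 CPM in lining, 69.9, 178 and 311 CPM in interstitial and 223, 226 and 205 CPM in BMDM and was not called. Cdkn1c, p57, was not called at 3.39, 3.34 and 12.4 CPM, 6.20, 6.18 and 2.33 CPM and 9.28, 11.8 and 10.3 CPM. Cdkn2a had 0, 6 and 0 reads in lining, 0, 1 and 1 in interstitial and 26, 28 and 36 in BMDM, and was called against interstitial only (adjusted p 0.0369, and 0.129 against lining). Cdkn2b had 0, 9 and 0 reads in lining, 0, 7 and 1 in interstitial and 31, 31 and 23 in BMDM and was not called.

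Markers of other cells that a sort or a culture could hold were counted beside the BMDM comparisons. Myeloid progenitor markers (6 genes) summed to 2.91 to 16.6 CPM in lining, 17.2 to 19.9 in interstitial and 80.8 to 97.0 in BMDM. The members of this list differed in direction. Cd34 ranged from 0 to 2.001 CPM across lining libraries, from 2.76 to 11.95 across interstitial ones and from 67.8 to 84.1 in BMDM, and made up most of the BMDM sum. By edgeR Cd34 was called higher in BMDM in both comparisons (adjusted p 6.49e-06 against lining and 9.38e-05 against interstitial), as was Kit (adjusted p 0.00837 and 0.00236). Flt3 went the other way, from 0 to 12.9 CPM across lining libraries, 7.97 to 13.4 across interstitial ones and 0.820 to 1.54 in BMDM, and was called lower in BMDM in both (adjusted p 0.0194 and 0.0115). Prtn3 and Ms4a3, defining genes of granulocyte-monocyte progenitors, had no read in any sorted library and at most 0.45 and 0.09 CPM in BMDM. Fibroblast markers (7 genes) summed to 170 to 303 CPM in lining, 190 to 691 in interstitial and 2.03 to 2.73 in BMDM. Dendritic cell markers (5 genes) summed to 18.9 to 47.6, 69.8 to 238 and 3.41 to 4.71 CPM. Neutrophil markers (9 genes) summed to 22.3 to 35.2, 20.1 to 76.2 and 50.8 to 60.8 CPM, a sum of opposite differences. Csf3r, the receptor of the granulocyte growth factor G-CSF, made up most of it in lining and was called lower in BMDM than in lining (adjusted p 0.0115), while S100a9, Ltf, Ngp and Mpo, which encode granule or cytosolic proteins of neutrophils, were called higher (adjusted p 0.00984, 0.0166, 0.0108 and 0.0476). Against interstitial the adjusted p values of these 5 genes ran from 0.0777 to 0.717. T cell markers (5 genes) summed to 0.750 to 6.29, 9.30 to 38.0 and 0.0432 to 0.138 CPM. Cd2 made up most of the sum in every sorted library except lining C, where 2 reads of Trac were the whole of it. Of the genes of the T cell receptor complex, Cd3g had no read in any sorted library, Cd3e had 1 in A, Cd3d had 6 in B and 3 in E, and Trac had 1 in F beside the 2 in C. The part of these cells in the differences was not tested.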

How the data were processed

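The authors deposited 1 table of raw read counts per gene, with no normalization. Per the file headers, featureCounts 1.6.1 counted reads over exons by Ensembl gene (GRCm38, release 91) on the reverse strand, and its command shows no option for multi-mapping or overlapping reads. Libraries were poly(A)-selected and stranded, per the labels, and the submitters' processing notes list the aligner STAR 2.5.4a and the adapter trimmer cutadapt 1.15. On the counting strand, 3 of the 36 genes shared exon bases with another gene, at most 3.78% of their bases. Symbols were matched for 53274 gene identifiers and not for 191.

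Counts were fitted in R 4.3.3 with edgeR 4.0.16 (filterByExpr with a minimum count of 10 and a minimum total of 15, TMM scaling, robust quasi-likelihood, 3 groups, 6 residual degrees of freedom), with Benjamini-Hochberg adjustment over all 12610 genes. Tests were 2-sided, the SE divides each log2 fold change by the root of its F statistic, and the code was tested on simulated data. CPM values were computed from the counts with TMM factors. Alternatives were other scaling factors, DESeq2 1.42.0, limma 3.58.1 (voom), other filters, only the groups compared, thinned counts and leaving out libraries. The 36 genes, the related lists and the rule for named genes (all 36, with every library's value for 2 per role by mean CPM and for the 3 largest and 3 smallest differences, and the 2 largest per related list) were chosen with earlier results of these data known. Genes named outside the rule are said to be so.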

Additional observations from a re-analysis of the deposited data

How the results depend on the processing

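Across 19 alternatives, all 36 genes stayed higher in BMDM against both sorted groups. Leaving out 1 library at a time gave 33 to 36 genes called higher against lining and 34 to 36 against interstitial. The lowest counts came without BMDM G, H or I, where Ccna2 and Ncapg lost their calls against lining and Cenpf and Ncapg theirs against interstitial. Against interstitial, Cenpf also missed the threshold with DESeq2 (adjusted p 0.0775), without a filter (0.0596) and with thinned counts (0.0538). Against lining, 10 alternatives brought Cenpf past it, with adjusted p values from 0.000953 over all 19, up to 0.171. Between lining and interstitial, DESeq2 called 1 gene higher, the fit without a filter 1, and leaving out 1 library 0 to 2. Spc25, not called there, ranged from -3.12 (without lining B) to 0.56 with 1 library left out and changed sign without interstitial F, which held its highest sorted level. The cause of the other changes was not tested.

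With library totals alone, the mean summed level in BMDM was 7119 CPM, the median over all genes shifted by 0.11 (log2) against lining, and 24.1% of genes were called higher and 20.6% lower there. Between lining and interstitial, the share of all genes called ranged over the alternatives from 2.03% to 5.62% higher and from 0.914% to 4.67% lower, where the values of the report were 3.75% and 2.05%. No paired analysis was possible because the labels give the groups no shared replicate numbers. Low read numbers limit lining A and interstitial D most. The median gene had 11.5 reads in A and 7.5 in D, against 2542 or more in BMDM. Both libraries were shallower than BMDM and also lower in level. Thinned to 2194920 counts, the 36 genes had 653 reads in A, 706 in D and 15243 to 15855 in BMDM.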
